A study of Homo sapiens with 6 samples.

Results

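Cassette exons of the SWI/SNF chromatin remodeler genes were taken from RNA-seq of MDA231-BrM2a cells, human breast cancer cells selected from the MDA-MB-231 line for metastasis to the brain. The set was built around PBRM1, which was chosen by the measured difference in inclusion rate between the groups at 2 of its events, together with ARID1A, ARID1B, ARID2, SMARCA2, SMARCA4, SMARCC1, SMARCC2, SMARCE1 and SMARCB1, added as subunits of the same complexes. Every row of the deposited splicing table listed under these 10 gene symbols was kept. That gave 38 of 24725 cassette exon events, from 9 of the 10 genes. SMARCB1 had no row under its symbol or gene identifier. The 3 control cultures (replicates 1 to 3) were non-clonal cells with the empty pRetroX-Tight-Pur vector. The 3 RBM47 cultures were 1 clonal line, wt#10, in which the same vector drove Flag-tagged wild-type RBM47, an RNA-binding protein, from a doxycycline-inducible promoter. Both groups received 10 ng/ml doxycycline for 3 days. Because the RBM47 cells were a single clone and the control cells were not, RBM47 expression and clonal origin cannot be told apart. No label states that the 3 samples of a group were separate experiments, so the spread between them may be technical.

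SWI/SNF complexes use ATP to move or eject nucleosomes and so open chromatin at promoters and enhancers. In the BAF and PBAF forms, a complex holds 1 ATPase, SMARCA4 (BRG1) or SMARCA2 (BRM), on a core that contains SMARCC1, SMARCC2, SMARCB1 and SMARCE1. ARID1A or ARID1B marks the BAF form of the complex, while ARID2 and PBRM1 (BAF180) mark the PBAF form, and the bromodomains of PBRM1 bind acetylated histones. Several of these genes are recurrently mutated in human cancers.

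Cassette exons can be kept between their 2 neighbouring exons in the mRNA or be skipped. The inclusion rate is a fraction from 0 (always skipped) to 1 (always included), given by the authors for each sample. For junction reads only the group sums were deposited, 1 for the isoform with the exon and 1 for the isoform without it. Over the whole table they came to 0.910 times as many reads in RBM47 as in control cells, with a median event of 362 reads in control and 294 in RBM47 cells. RBM47 replicate 2 stood apart, since 14.8% of its rates in alternative events (mean rate 0.1 to 0.9) took the value 0 or 1, while in the other 5 samples this share was 6.08% to 7.63%. RBM47 itself had 0 events in the table, so the transgene could not be checked here. VIM, CD44, EGFR and ANXA1, which MDA-MB-231 cells are known to express, had from 967 to 741835 control junction reads. ESR1, PGR and CDH1, known to be low or absent in them, had 0 events. Having 0 events is not a measure of expression, so the absence of these genes could not be checked.

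For PBRM1 the results turn on a pair of events with the same outer ends (chromosome 3, 52559802 to 52571023 in the table, whose genome build is not named). By gene and span, both lie between flanking exons that enclose 2 annotated cassette exons of 156 and 165 bases in GRCh37. The table does not say which event belongs to which exon. Both exons are coding in annotated transcripts, are a whole number of codons long (52 and 55) and hold 0 in-frame stop codons, so each can be added or left out without changing the reading frame. Their sequences are shown because both exons lie within the span of the pair, whose rates differed between the groups. They are read on the minus strand of GRCh37, with the exon in capitals, 20 intron bases before it and 10 after it in lower case.
PBRM1 156-base exon (chr3:52588740-52588895): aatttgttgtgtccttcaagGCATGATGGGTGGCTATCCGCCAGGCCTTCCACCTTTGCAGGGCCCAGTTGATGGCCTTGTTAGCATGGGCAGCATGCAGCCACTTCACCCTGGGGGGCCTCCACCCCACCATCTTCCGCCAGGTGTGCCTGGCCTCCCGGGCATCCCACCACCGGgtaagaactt
PBRM1 165-base exon (chr3:52592265-52592429): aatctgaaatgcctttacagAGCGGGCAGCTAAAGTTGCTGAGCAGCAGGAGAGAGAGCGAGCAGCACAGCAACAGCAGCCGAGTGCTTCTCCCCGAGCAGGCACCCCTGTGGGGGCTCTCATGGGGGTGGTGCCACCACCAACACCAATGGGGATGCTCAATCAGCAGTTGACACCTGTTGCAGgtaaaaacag

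Both PBRM1 exons are GC-rich, at 66.0% and 61.2%. Their acceptor ends in ag and their donor begins with gt. Of the 20 intron bases before each exon, 12 and 10 were pyrimidines. A run of 5 T (TTTTT, searched on the transcript strand only) was found in the 250 intron bases upstream of both, as it was in 51.3% of 168576 internal coding exons of the annotation.

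The first event of the PBRM1 pair had inclusion rates of at most 0.5 in control cells and of at least 0.833 in RBM47 cells. Its inclusion rate was 0.265, 0.5 and 0.314 in control replicates 1, 2 and 3, and 0.833, 1 and 1 in RBM47 replicates 1, 2 and 3. The lowest RBM47 sample lay above the highest control sample. The group means were 0.360 ± 0.124 and 0.944 ± 0.0962 (SD, n = 3 each), a difference of 0.585. In control, 64 reads included the exon and 40 skipped it, whereas RBM47 cells had 42 and 1.

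The second event was included in control at 0.463, 0.750 and 0.547, and in RBM47 cells at 0.929, 1 and 1. Again the groups did not overlap. Its means were 0.587 ± 0.148 and 0.976 ± 0.0412 (SD, n = 3 each), a difference of 0.390, with totals of 142 (including) and 40 (skipping) for control against 80 and 1 for RBM47. Both events have the same skipping totals, 40 and 1 reads, so they share the skipping junction and are not independent. Control replicate 2 had the highest control rate in both. Because these differences led to the choice of PBRM1, they are given as descriptions without a test. Leaving out 1 sample at a time moved them from 0.537 to 0.655 and from 0.328 to 0.471.

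The sample rates of these 2 events had been placed in other rows of the deposited table and were found again by the printed RBM47 average, which no other unused row carried. The read totals took no part in that match, and give rates of 0.444 and 0.955 for the first event and of 0.640 and 0.976 for the second, in the same direction. Rates from totals are the including reads divided by the including reads plus 2 times the skipping reads. The averages printed in the rows by the authors are 0.8 in control and 0.944 in RBM47 cells for the first event, a difference of 0.144. For the second they are 0.220 and 0.976, a difference of 0.756. The printed control averages thus conflict with the control means given above, 0.360 and 0.587. They also make the second event, not the first, the one less included in control. Only the RBM47 averages were used here.

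**Figure D1:**
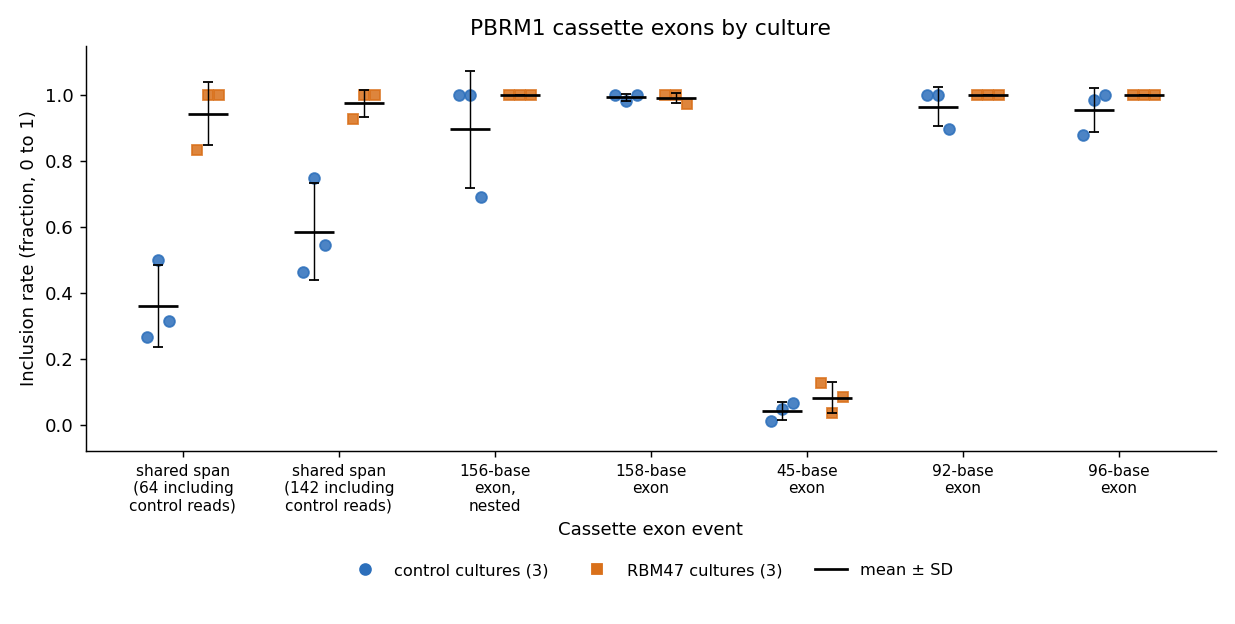
Inclusion rate (fraction, 0 to 1) of the 7 PBRM1 cassette exon events in the 3 control (circles) and 3 RBM47 (squares) cultures, with mean and SD as bars. The groups are apart in the pair of events with a shared span, at 0.360 against 0.944 and 0.587 against 0.976, and overlap in the other events.

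The other 5 PBRM1 events had differences from -0.00227 to 0.103. Nested inside the shared span, the event from 52559802 to 52567468 matches the same 156-base exon, but with the 165-base exon as its neighbour. Its rate was 1, 1 and 0.692 in control replicates 1, 2 and 3 and 1 in all 3 RBM47 samples. It thus stayed nearly complete in both groups, with 2 skipping reads in control and 0 in RBM47 cells (a count of 0 against 58 including reads allows up to 5.17%). The difference of 0.103 rested on control replicate 3, without which it was 0.

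Upstream in PBRM1, a 45-base coding exon (GRCh37 chr3:52658913-52658957) was mostly skipped. It was included at 0.0110, 0.0486 and 0.0649 in control and at 0.128, 0.0345 and 0.0833 in RBM47 cells, overlapping ranges with a mean difference of 0.0405. PBRM1 exons of 158, 92 and 96 bases were included at mean rates of 0.955 or higher in both groups. In the 92-base and 96-base exons all 3 RBM47 samples were at 1, and 1 or 2 control samples were below 1, the lowest at 0.879.

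Of all 38 events, 2 passed the criteria of the study (unadjusted p of at most 0.05 by Fisher's exact test on group read totals, a difference of at least 0.2 and at least 10 reads), both higher in RBM47 cells, against 1.40% of 24706 events in the whole table. They are the PBRM1 pair, so the count follows from the choice of genes and nothing is read from it. Nearest to the required difference of 0.2 stood the second PBRM1 event at 0.390 inside it and a SMARCA2 event at 0.111 outside it.

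Outside that pair, no event differed by 0.2. The median absolute difference of the other 36 events was 0.00842, against 0.0114 over all events of the table. Differences were under 0.05 in 32 of the 36 and under 0.1 in 34. By direction, 20 were above 0, 12 below and 4 exactly 0. With a minimum of 30 reads per group, 36 of the 38 events were left and 3 of them differed by at least 0.1 (the PBRM1 pair, fixed by the choice of the gene, and the nested PBRM1 event), against 7.30% of all such events in the table. In 3 of the 38 events all samples of one group lay above all of the other, against 9.93% of all events. These were again the PBRM1 pair and, outside it, 1 SMARCA4 event. Mean rates lay above 0.9 in 19 of the 36 and below 0.1 in 11, so 6 were left as alternative exons in the sense of the limma test. These 6 were tested in limma, which asks whether a difference exceeds the spread between samples. Of the 6, 0 were called (a difference of 0.2 or more with an adjusted limma p under 0.05), against 1.53% of all 5999 events tested, and their limma adjusted p ran from 0.873 to 0.992. An unadjusted limma p under 0.05 was found in 0 of the 6, against 12% of the 5999. For the PBRM1 pair no limma p is given, since its difference led to the choice of the gene. Its calls are counted only where the processing is varied.

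**Figure D2:**
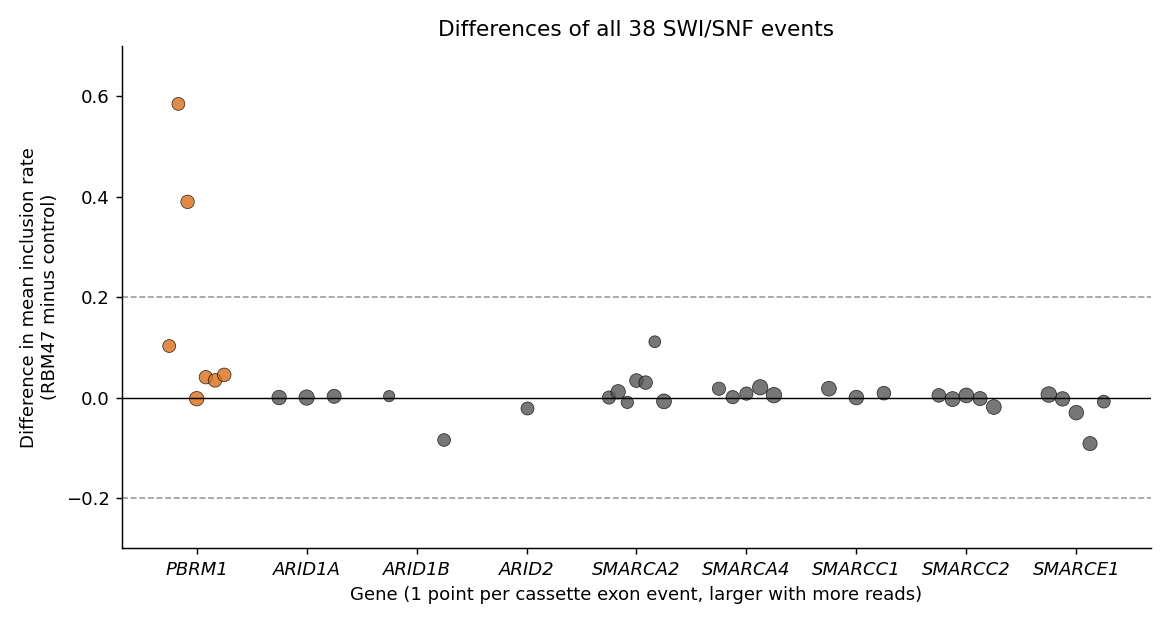
Difference in mean inclusion rate (RBM47 minus control, fraction) of all 38 events by gene, with 1 point per event, larger with more reads, and dashed lines at the required difference of 0.2. Both points above the upper line are the PBRM1 pair at 0.585 and 0.390, and the other 36 lie between -0.0917 and 0.111.

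The ARID subunits, which bind DNA and help place the complex, were read at few alternative exons. In ARID1A, 2 events with the same outer ends (chromosome 1, 26972879 to 26974784) had a rate of 1 in all 6 samples. By span they match 2 nested forms of the same exon, of 892 and 241 bases, that end at the same base. A rate of 1 then means that no read skipped both forms, not that each form was always included. The deeper of them had 1243 including reads in control and 821 in RBM47 cells and 0 skipping reads, which allows a skipping share of up to 0.241% and 0.365%, counting error only. The remaining ARID1A event was skipped almost everywhere, with rates of at most 0.0152.

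In ARID1B, a 159-base coding exon (GRCh37 chr6:157495981-157496139) was included at 0.838, 1 and 0.882 in control and at 0.8, 1 and 0.667 in RBM47 cells. The samples overlapped, and the difference of -0.0845 was smaller in size than the RBM47 SD of 0.168 (limma adjusted p = 0.883), from 78 and 46 reads. The 95% interval of this difference, from limma on untransformed rates, was -0.343 to 0.174, which leaves out an increase of 0.2 but not a decrease of that size. The second ARID1B event had only 20 and 11 reads. The single ARID2 event (chromosome 12, 44573679 to 44585309) was skipped, at 0.0556, 0.00840 and 0 in control and at 0 in the 3 RBM47 samples, though 8 including reads were deposited for RBM47 cells. From the summed reads the ARID2 difference was 0.0280 in place of -0.0213.

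The ATPase SMARCA2 has an optional coding exon of 54 bases (18 codons), and SMARCC2 has one of 93 bases (31 codons). Both were included in about the same share of transcripts in the 2 groups, and their sequences are shown for comparison with those of PBRM1, since they too are whole numbers of codons long. SMARCA2 is read on the plus and SMARCC2 on the minus strand of GRCh37, with capitals as above.
SMARCA2 54-base exon (chr9:2170419-2170472): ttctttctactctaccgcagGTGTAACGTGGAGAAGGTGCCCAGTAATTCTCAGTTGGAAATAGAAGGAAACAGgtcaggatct
SMARCC2 93-base exon (chr12:56566721-56566813): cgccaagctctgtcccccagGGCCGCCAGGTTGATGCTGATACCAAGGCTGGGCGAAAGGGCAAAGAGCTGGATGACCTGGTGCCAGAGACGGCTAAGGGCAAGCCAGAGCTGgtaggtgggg

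The SMARCA2 54-base exon was included at 0.226, 0.277 and 0.223 in control and at 0.230, 0.262 and 0.210 in RBM47 cells. The ranges overlapped, with 1 control sample above all RBM47 samples and 1 RBM47 sample below all controls. The difference of -0.00760 had a 95% interval of -0.0797 to 0.0645 (limma adjusted p = 0.964), from 567 and 641 reads. For the SMARCC2 93-base exon, in a scaffold subunit of the core, the rates were 0.254, 0.215 and 0.188 against 0.209, 0.176 and 0.265. They overlapped, and the difference of -0.00209 had a 95% interval of -0.107 to 0.103 (limma adjusted p = 0.992). In both exons the interval leaves out a change of 0.2 in either direction.

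A second SMARCA2 exon, of 35 bases (GRCh37 chr9:2161001-2161035), was included at 0.0811, 0.0886 and 0.286 in control and at 0.195, 0.161 and 0.189 in RBM47 cells. The control samples spanned all 3 RBM47 samples, and the difference of 0.0298 (95% interval -0.135 to 0.195, limma adjusted p = 0.873) was within the control SD of 0.116. At 35 bases this exon is not a whole number of codons long. The widest difference of any event outside PBRM1, 0.111, was also in SMARCA2 (2150263 to 2151902), where a single control sample at 0.667 stood against 1 in the other 5, from 20 and 32 reads. That event was named after its values were seen.

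SMARCA4, the other ATPase, held the event with the most reads of the 6 tested in limma. Its 96-base coding exon (GRCh37 chr19:11150134-11150229) was included at 0.0991, 0.0935 and 0.123 in control and at 0.0920, 0.121 and 0.116 in RBM47 cells, from 1230 and 1283 reads. The difference of 0.00476 had a 95% interval of -0.0480 to 0.0575 (limma adjusted p = 0.955). The event just before it, which spans 910 bases (11004965 to 11005875), was the only one outside PBRM1 without overlap. It was named after its values were seen. Its rates were 0.0532, 0.0716 and 0.0650 in control and 0.0771, 0.0928 and 0.0808 in RBM47 cells, so every RBM47 sample was higher, by 0.0203 on average. Fisher's exact test on the totals (122 including and 941 skipping against 163 and 881 reads) gave p = 0.00611, or 0.0902 after Benjamini-Hochberg adjustment over all events. With all mean rates tested, its limma adjusted p was 0.619. Outside the PBRM1 pair, whose choice fixed its own result, 2 of 36 events had a Fisher p of at most 0.05, against 14.4% of all events. They were this SMARCA4 event and 1 SMARCE1 event.

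In SMARCE1, a DNA-binding core subunit, that event (chromosome 17, 36047269 to 36055624) had a rate of 1 in all 3 control samples and of 1, 1 and 0.725 in RBM47 replicates 1, 2 and 3. Only RBM47 replicate 3 was lower. The totals were 278 including and 0 skipping reads against 262 and 15 (Fisher's exact p = 2.44e-05, adjusted 0.00108), but the test pools the samples and does not see that 1 of them carried the difference of -0.0917. With all mean rates tested, its limma adjusted p was 0.810. The event with most reads in SMARCE1 (36038532 to 36040701) was included at 0.0606, 0.0703 and 0.0781 in control and at 0.0868, 0.0880 and 0.0522 in RBM47 cells. The RBM47 samples lay on both sides of the control samples, from 1661 and 1318 reads.

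Among the other events of the core, the SMARCC1 exon of 114 bases (GRCh37 chr3:47716965-47717078) was included at 0.892, 0.978 and 0.936 in control and at 0.977, 0.941 and 0.940 in RBM47 cells, a difference of 0.0176 with overlap. The remaining SMARCC1 and SMARCC2 events had mean rates of at most 0.0145 or at least 0.942 in each group, and none differed by more than 0.0189.

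**Figure D3:**
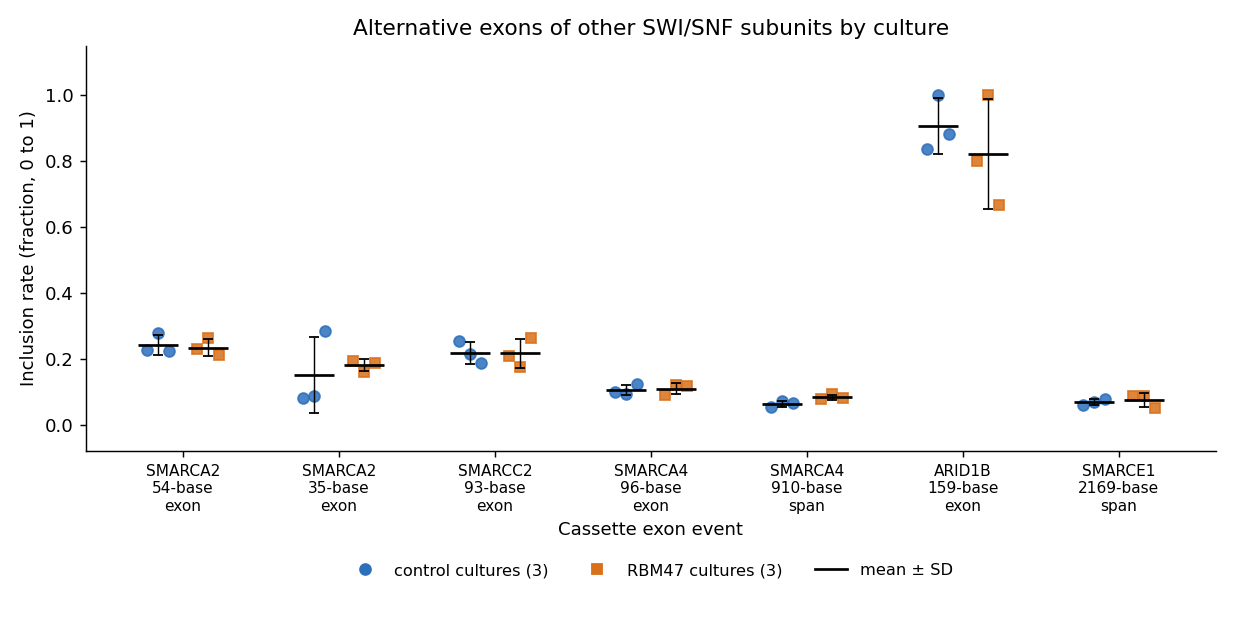
Inclusion rate (fraction, 0 to 1) of 7 exons in the other subunits in the 3 control (circles) and 3 RBM47 (squares) cultures, with mean and SD as bars. Group means differ by at most 0.0298 outside ARID1B, where the difference is -0.0845, and the groups overlap in all but the SMARCA4 event that spans 910 bases.

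Read totals of the same junctions were also compared between the groups. Each total is 1 value per group, so no spread or test is given. A ratio taken alone does not separate RNA per cell from the number of cells or sequencing depth. It is therefore set beside the ratio of the whole table, 0.910, and those of other genes, and its cause was not tested. Events of a gene share junctions, so their reads are counted more than once in a sum. Summed over its 7 events, PBRM1 had 1560 junction reads in control and 650 in RBM47 cells, a ratio of 0.417. Over the 5079 genes with at least 500 control reads, the median ratio was 0.883, the 10th percentile 0.529, and 4.23% of genes had a lower ratio than PBRM1. Each of the 7 PBRM1 events had fewer reads in RBM47 cells, with ratios from 0.337 to 0.652. In the pair, including reads were 64 and 142 in control against 42 and 80 in RBM47 cells, while skipping reads were 40 against 1. At the 158-base exon, included in nearly all transcripts, the totals were 536 and 234 reads.

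The ARID subunits also had ratios under that of the whole table, at 0.674 for ARID1A, 0.582 for ARID1B and 0.562 for ARID2 (the last 2 from only 98 and 105 control reads). SMARCC1 had 0.652, SMARCC2 0.851 and SMARCE1 0.862. Both ATPases were near 1, SMARCA4 at 0.982 and SMARCA2 at 0.970. Within SMARCA2, however, the ratio changed along the gene, which was noticed after the values were seen. Its 2 upstream events (starting at 2005341 and 2100253) had 128 and 59 reads and 472 and 328 reads, ratios of 0.461 and 0.695. The 5 events at its 3′ end (from 2148455 onward), which overlap, had ratios from 1.13 to 1.6. The highest came from only 20 control and 32 RBM47 reads. Among those with at least 50 control reads the highest ratio was 1.36. The upstream part thus had fewer reads in RBM47 cells and the 3′ part more. Replicate values behind these totals were not analysed here.

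**Figure D4:**
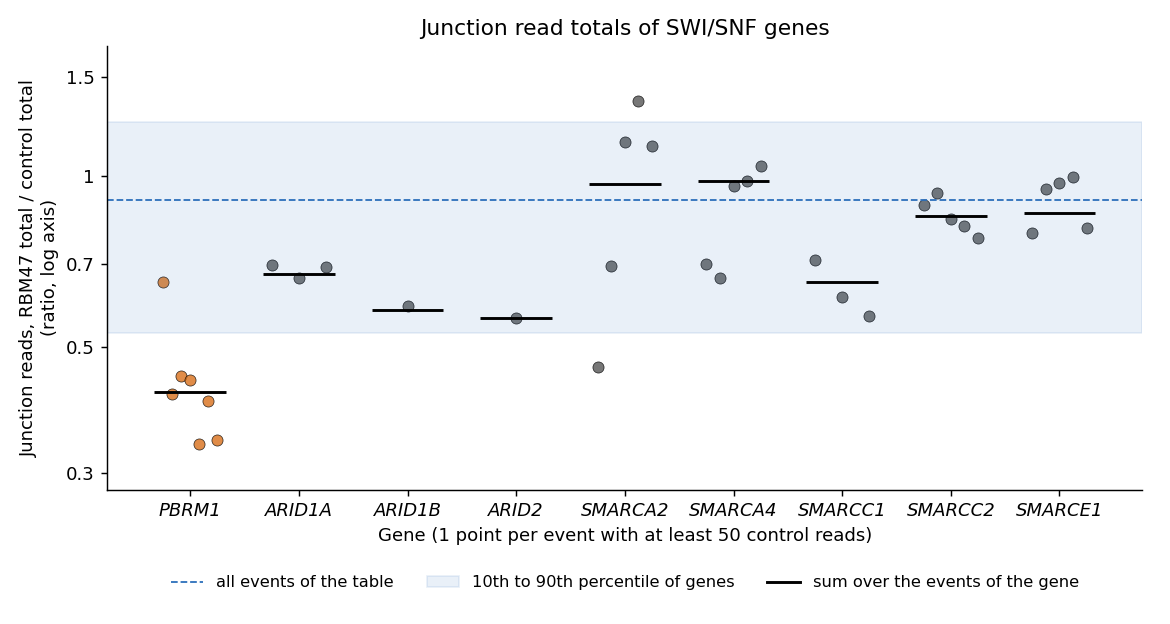
Ratio of junction read totals (RBM47 over control, log axis) for each event with at least 50 control reads, by gene, with black lines for the sum over a gene's events, a dashed line for the whole table (0.910) and shading from the 10th to the 90th percentile of genes (0.529 to 1.25). PBRM1 sums to 0.417, and SMARCA2 events spread from 0.461 to 1.36.

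Further SWI/SNF subunits were taken from a list of 23 genes, of which 13 had 45 events. By the study criteria 0 of the 45 passed, against 1.40% of all events. In limma 0 of 7 tested were called, against 1.53% of all events tested, and 1 had an unadjusted p under 0.05, against 12%. That event lies in ACTL6A, an actin-related subunit (chromosome 3, 180774851 to 180776792). It was included at 0.875, 0.946 and 0.939 in control and at 0.765, 0.733 and 0.778 in RBM47 cells, lower in all 3 RBM47 samples by 0.162 on average (limma adjusted p = 0.284). Only 4 skipping reads in control and 9 in RBM47 cells stood behind these rates. Another ACTL6A event with the same outer ends had mean rates of 0.0307 in control and 0.0258 in RBM47 cells. In BRD7, which like PBRM1 is a bromodomain subunit of PBAF, the event from 48913393 to 48917294 was included at 0.913, 0.814 and 0.925 in control and at 1 in the 3 RBM47 samples, with 18 skipping reads in control and 0 of 356 in RBM47 cells. This difference of 0.116 was under the required 0.2. ACTL6A and BRD7 were named after their values were seen.

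Of the ATP-dependent remodelers of other families (ISWI, CHD and INO80 among them), 36 genes were listed, of which 27 had 81 events. Past the study criteria were 3 of the 81, against 1.40% of all events in either direction. All 3 were lower in RBM47 cells, and 0.793% of all events in the table passed in this direction. One was in BAZ2B, a bromodomain subunit of ISWI-type complexes, where inclusion fell by 0.537, from 0.787 ± 0.0613 to 0.250 ± 0.250 (SD, n = 3 each), with a limma adjusted p of 0.189. Only 25 reads stood behind the RBM47 value, and the printed averages of its row run the other way (0.0639 in control and 0.250 in RBM47 cells). The other 2 were in BPTF, the large subunit of the NURF complex, and fell by 0.262 and 0.367 (limma adjusted p = 0.415 and 0.218). The BPTF events overlap and are not independent. Without RBM47 replicate 2 the smaller of these differences was -0.170, under the required 0.2. As in the PBRM1 pair, the sample rates of all 3 events were found by the RBM47 average alone. In limma 0 of 24 tested events of these genes were called, against 1.53% of all events tested. An unadjusted limma p under 0.05 was found in 6 of the 24, against 12% of all events tested. These 6 lie only in BAZ2B, BPTF and CHD3. The BPTF events among them overlap and the CHD3 events have the same outer ends, so the 6 are not independent. Whether these lists differ from one another was not tested.

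The events whose 6 rates were most like those of the first PBRM1 event were ranked by the mean absolute distance between sample rates over 22473 events with at least 100 reads. The nearest were in TJP1 (0.0939), OSBPL6 (0.0974), ZNF655 (0.105), the gene listed as 6-Sep (0.114) and MYBL1 (0.123). The rates of all 5, like those of the PBRM1 pair, were found by the RBM47 average alone, as in 252 of the 24706 events with rates. In TJP1, a tight junction scaffold, inclusion was 0.400, 0.333 and 0.310 in control and 0.820, 0.957 and 0.798 in RBM47 cells. Among these 5 nearest events the second of the PBRM1 pair was absent.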

How the data were processed

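RNA-seq was done on 3 control and 3 RBM47 cultures. The authors mapped reads to cassette exon junctions and deposited, per event, an inclusion rate per sample (a fraction), the group averages, and junction read counts summed over the 3 samples of a group. TopHat is named in the submitters' processing notes, and the build of the coordinates is not given in the sources used here. Columns with the authors' own differences, odds ratios and p-values were not used. Depth per sample is unknown, and intervals and limits from a count of 0 (3 counts) cover counting error only.

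In 1392 of 24725 rows (5.63%) the rates did not average to the printed averages. Rates of 1121 rows were found by both averages (tolerance 3e-09), of 252 by the RBM47 average alone, and 19 stayed without rates. Of the member rows, 35 were aligned, 1 was found by both averages and 2 by the RBM47 average. In all 252 the matched difference had the sign of the read totals. Including totals can hold reads that the rates do not, so rates from totals are given only as a check.

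Fisher's exact test (two-sided, scipy 1.17.1) used the group totals. limma 3.58.1 (R 4.3.3) was run on arcsine square root transformed rates across all events with a mean rate of 0.1 to 0.9, with a variance trend on log2 reads and Benjamini-Hochberg adjustment, and was tested on simulated data. Exons were matched to the GENCODE annotation of GRCh37 by gene and outer span. A match was found for 30 of the 38 events, to a single exon in 20, and in each of 8 genes with a match all matches implied the same shift of coordinates. Named were events past the study criteria, those differing by 0.1 or with a mean rate of 0.1 to 0.9 (30 reads in each group), and otherwise the deepest event of a gene. The members, lists and tests were chosen with earlier results of these data known. Alternatives were other thresholds, read minimums, transformations, the replicate block, other row alignments and leaving out each sample.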

Additional observations from a re-analysis of the deposited data

How the results depend on the processing

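The 2 member events past the study criteria are the PBRM1 pair that led to the choice of the gene. Their count is therefore no support for the difference. They stayed 2 with differences of 0.1 or 0.3, adjusted Fisher p, 20 or 30 reads in each group and rates from summed reads. Without any 1 sample they also stayed 2 (2 to 2, with Fisher's p kept, since reads per sample are unknown). They became 0 in rows aligned as deposited, 0 with rates in the row as deposited and 1 with the authors' printed averages, because both PBRM1 events lie in misaligned rows. With the rates in its row, the second PBRM1 event reversed to -0.0807. In limma 2 member events were called, the PBRM1 pair, which the choice of the gene fixed, so nothing is read from the calls. They became 0 without the variance trend, 0 with all mean rates, 0 in aligned rows and 0 to 1 without 1 sample (1 without RBM47 replicate 1, fewer samples in each fit). The cause of the other losses was not tested.

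With the replicate number as a block 1 limma call was left, and no other member call changed. Deviations of same-numbered samples had r of -0.0223, -0.00555 and 0.0141 across 5999 events. These values give no sign that a shared number marks a pair, but cannot exclude it. The 0 events of further SWI/SNF subunits became 2 (1 higher, 1 lower) with a difference of 0.1. The 3 events of other remodelers became 5 with a difference of 0.1 and 5 with rates in the row as deposited (3 higher, 2 lower), and 2 without RBM47 replicate 2 (a BPTF event was lost). Their alternatives were chosen after the data were examined. Of 108 alternatives for the differences of 12 named events, 15 changed the sign. Of these, 14 were in 7 events that were not called, with differences of at most 0.0298 in size, and 1 was the reversal above.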
